A study of Arabidopsis thaliana with 8 samples.

Results

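A group of 113 of 27416 measured gene models stood out in dark-grown Arabidopsis thaliana seedlings mutated in 4 auxin receptor genes. There, their mean RPKM + 1 was at least 4-fold that of the dark wild type. On the same scale they stayed near the dark wild-type level in both groups grown under blue light. The members were chosen from group means of RPKM, which are read counts scaled by model length and library size. The log2 ratio of RPKM + 1 between the receptor mutant and the dark wild type had to be at least 2, and the log2 ratios to the dark wild type of both blue light groups, wild type and cry1 cry2 mutant, had to lie between -0.5 and 0.5. Of the members, 105 were nuclear and 8 were encoded in the plastid genome. The rule thus fixes that the mutant was high and the other 3 groups were alike, and those values are given here as a description without a test.

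All seedlings were of the Col-0 accession on medium with 1% sucrose. After 3 days of cold and 12 h of white light they stood 4 days either dark or under 15 µmol m-2 s-1 blue light, and the growth time was 4.5 days. The 4 groups of 2 libraries each were dark wild type, blue light wild type, blue light cry1 cry2, mutated in both cryptochrome photoreceptor genes, and dark tir1 afb123, which is mutated in the auxin receptor genes TIR1, AFB1, AFB2 and AFB3. The alleles are not given in the sources used here, and that mutant in blue light and cry1 cry2 in darkness were not analysed here. The series asked which genes depend on blue light through the cryptochromes and which on auxin through these receptors. Whether 2 libraries of one group were grown separately is not labelled, so p-values reflect only the spread among these samples and that spread may be technical.

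TIR1 and the AFB proteins are F-box subunits of ubiquitin ligases that bind auxin together with Aux/IAA repressors, which are then degraded, so that auxin response factors can act on their target genes. Auxin signalling is needed in seedlings for the apical hook, for hypocotyl growth and for forming roots.

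The libraries held 19.3 M to 23.1 M reads, and replicate libraries had an SD of 0.109 to 0.12 on the log2(RPKM + 1) scale over tested models. In the mutant AFB2 stood at 1.55% and AFB1 at 3.16% of the dark wild-type level, while AFB3 kept 50.3% and TIR1 77.1%, so for TIR1 and AFB3 transcript level alone does not identify the mutant. Tests used limma on log2(RPKM + 1) over 20044 models, where "rose" and "fell" stand for a Benjamini-Hochberg adjusted p under 0.05. Between the mutant and the dark wild type 27.5% of the tested models rose and 51.4% fell, with a median log2 difference of -0.243; after median-ratio scaling 7739 models rose and 7473 fell, in place of 5521 and 10295. In whole seedlings, fewer cells of a type and less RNA per cell cannot be told apart.

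Summed over the 105 nuclear members, the level was 496 and 515 RPKM in the dark wild type, 490 and 495 in blue light wild type, 519 and 512 in cry1 cry2, and 4282 and 4161 in the mutant. These transcripts took 0.0742% to 0.0784% of the reads in the first 6 libraries and 0.601% and 0.576% in the mutant. All 113 members had both mutant libraries above the other 6, an arrangement found in 14.6% of tested models, and all 113 were among the risen models by limma. Both counts follow from the rule, so neither is support. The mutant libraries alone took every member past the filter on low values, and 45 members reached 1 RPKM in no other library. Between the lowest mutant and the highest other library the ratio was at least 3.03 for nuclear and 2.36 for plastid members. The log2 ratio of group means had a median of 2.53 and reached 5.32, with 40 members at 3 or more, 16 at 4 or more and 2 at 5 or more. In the dark wild type 52 members had a mean under 1 RPKM, 44 lay between 1 and 10 and 17 at 10 or more, and 45 stayed under 1 RPKM in every one of the 6 other libraries. In the mutant the means ran from 3.14 to 584 RPKM with a median of 19.5. The nuclear members agreed closely between the 2 mutant libraries, with a median ratio of replicate 2 to replicate 1 of 0.966 and a range of 0.733 to 1.73.

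**Figure D1:**
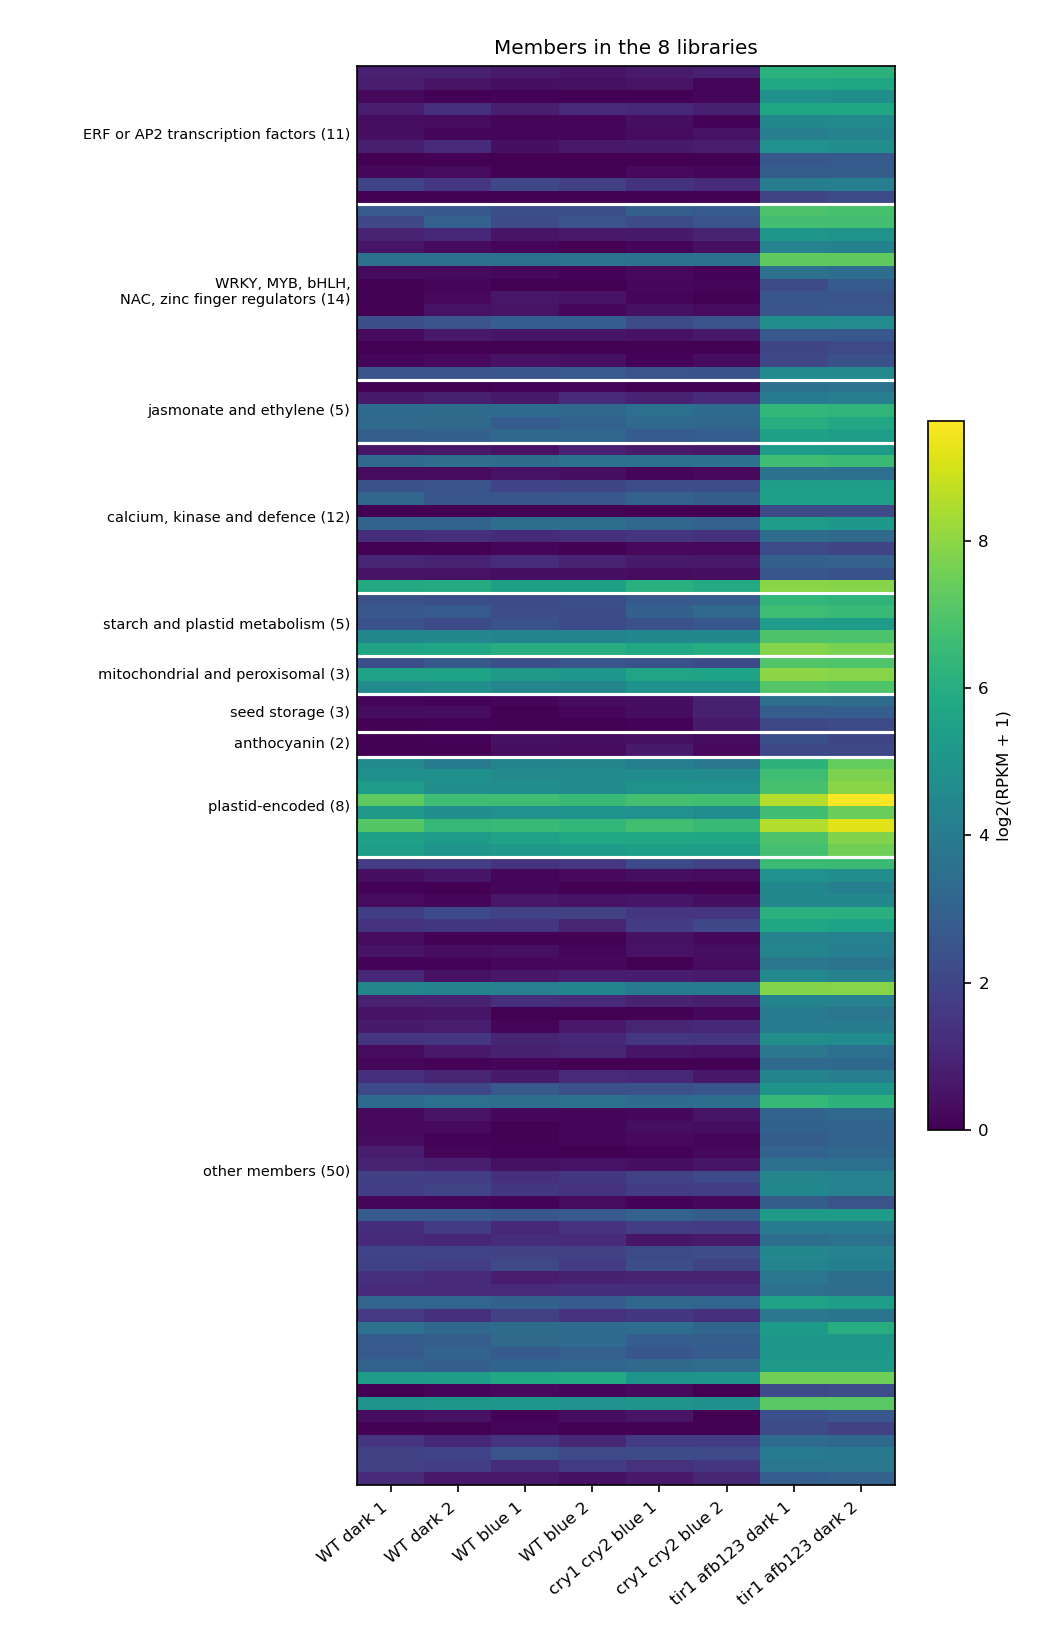
Level of each of the 113 members (rows, log2 of RPKM + 1, colour scale) in the 8 libraries (columns), with the members ordered by role and, within a role, by their difference; the number of members is in brackets. The 6 columns on the left look alike and both mutant columns are brighter in every row; the plastid-encoded rows are brighter in replicate 2 than in replicate 1 of the mutant.

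By RefSeq product name, the class with the most members was that of ERF or AP2 transcription factors, which bind DNA through an AP2 domain and carry many responses to ethylene, jasmonate, cold and drought. They made up 11 of the 105 nuclear members, 10.5%, against 0.629% of all models with a RefSeq product name. The promoters of the 4 such factors with the largest difference are printed as the 250 bases before the annotated start, read 5′ to 3′ along the gene from the TAIR10.1 assembly with RefSeq's gene starts, so that the sequences next to the most changed regulators can be read. Capitals mark each W-box core, TTGAC on either strand, which WRKY factors are known to bind.
RRTF1, chr4:16451626-16451875, plus strand: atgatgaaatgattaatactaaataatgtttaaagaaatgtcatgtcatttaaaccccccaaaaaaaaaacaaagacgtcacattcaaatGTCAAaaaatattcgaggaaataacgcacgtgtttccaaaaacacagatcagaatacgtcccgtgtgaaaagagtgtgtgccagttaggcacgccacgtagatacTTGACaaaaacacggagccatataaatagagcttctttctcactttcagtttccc
ERF13, chr2:18494965-18495214, plus strand: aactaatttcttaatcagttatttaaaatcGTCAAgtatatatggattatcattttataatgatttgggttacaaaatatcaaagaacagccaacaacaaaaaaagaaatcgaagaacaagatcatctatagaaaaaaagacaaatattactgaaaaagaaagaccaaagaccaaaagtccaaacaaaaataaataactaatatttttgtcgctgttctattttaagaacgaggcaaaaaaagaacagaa
DDF1, chr1:4291018-4291267, minus strand: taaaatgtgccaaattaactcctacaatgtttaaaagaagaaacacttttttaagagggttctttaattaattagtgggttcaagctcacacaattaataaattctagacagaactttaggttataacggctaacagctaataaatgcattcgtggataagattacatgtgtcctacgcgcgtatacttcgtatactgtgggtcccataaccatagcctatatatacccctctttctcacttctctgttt
ORA47, chr1:28143601-28143850, plus strand: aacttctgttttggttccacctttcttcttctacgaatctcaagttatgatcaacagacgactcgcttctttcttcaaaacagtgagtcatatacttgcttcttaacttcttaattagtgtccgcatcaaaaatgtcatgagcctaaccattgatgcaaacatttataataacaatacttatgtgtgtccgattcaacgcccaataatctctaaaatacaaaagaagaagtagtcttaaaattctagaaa

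The core occurs at -160 and -55 from the start of RRTF1 and at -220 from that of ERF13, and not in the printed stretch of DDF1 or ORA47. Over all members it was found in 58.1% of the 250-base stretches and in 44.7% of the 27443 promoters of the annotation, and at least 2 cores were found in 22.9% and 13.9%. A match is only a run of letters and says nothing about binding. Of the 11 ERF or AP2 members 6 held a core.

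RRTF1 (AT4G34410, also called ERF109), an ERF named for its response to redox changes, stood at 0.785 and 0.821 RPKM in the dark wild type, 0.566 and 0.417 in blue light wild type, 0.625 and 0.799 in cry1 cry2, and 70.2 and 71.4 in the mutant. The mutant libraries lay close together and far above the rest, at 70.8 ± 0.811 against 0.803 ± 0.0251 RPKM (mean ± SD, n = 2), the largest difference of all members on the log2(RPKM + 1) scale. From the recovered reads, 4264 against 44, the ratio was 88.2 (exact 95% interval 65.5 to 122, counting error only), since the added 1 RPKM in the log2 ratio shrinks differences of low genes. ERF13 (AT2G44840) had 0.723 and 0.424 RPKM in the dark wild type, 0.327 and 0.362 in blue light, 0.418 and 0.0989 in cry1 cry2, and 52.5 and 50 in the mutant.

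DDF1 (AT1G12610), a relative of the cold-regulating CBF factors whose overproduction makes plants dwarf, had 4 reads over both dark wild-type libraries and 1278 over both mutant libraries. Its levels were 0.145 and 0.046 RPKM in the dark wild type, 0.0811 and 0 in blue light, 0.0403 and 0.129 in cry1 cry2, and 27.7 and 27.1 in the mutant. It was thus close to silent in all groups but the mutant. ORA47 (AT1G74930), an activator of jasmonate synthesis genes, went from 0.677 and 1.45 RPKM to 49.8 and 49.4, and the other 4 libraries held 0.759 to 1.26.

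The other ERF or AP2 members were AT1G19210 (20.8 and 23.5 RPKM in the mutant), AT1G22810 (16.4 and 18.9), ERF11 (27.9 and 26.2), ABI4, an AP2 factor known for abscisic acid and sugar responses of seedlings (5.12 and 5.65), CBF4, a drought-related C-repeat binding factor (6.15 and 6.11), ERF2 (16.1 and 16.8) and AT5G21960 (2.96 and 3.52). Apart from ERF2, with 1.29 to 3.3 RPKM, none of these exceeded 1.22 RPKM in any of the 6 other libraries. Over the whole class of 168 models, 108 were tested, 57 rose and 38 fell, at a median log2 difference of 0.32. By group means of RPKM + 1, 16 models of the class were at least 4-fold higher, and only 5 of them missed the rule because a blue light group left the bounds.

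**Figure D2:**
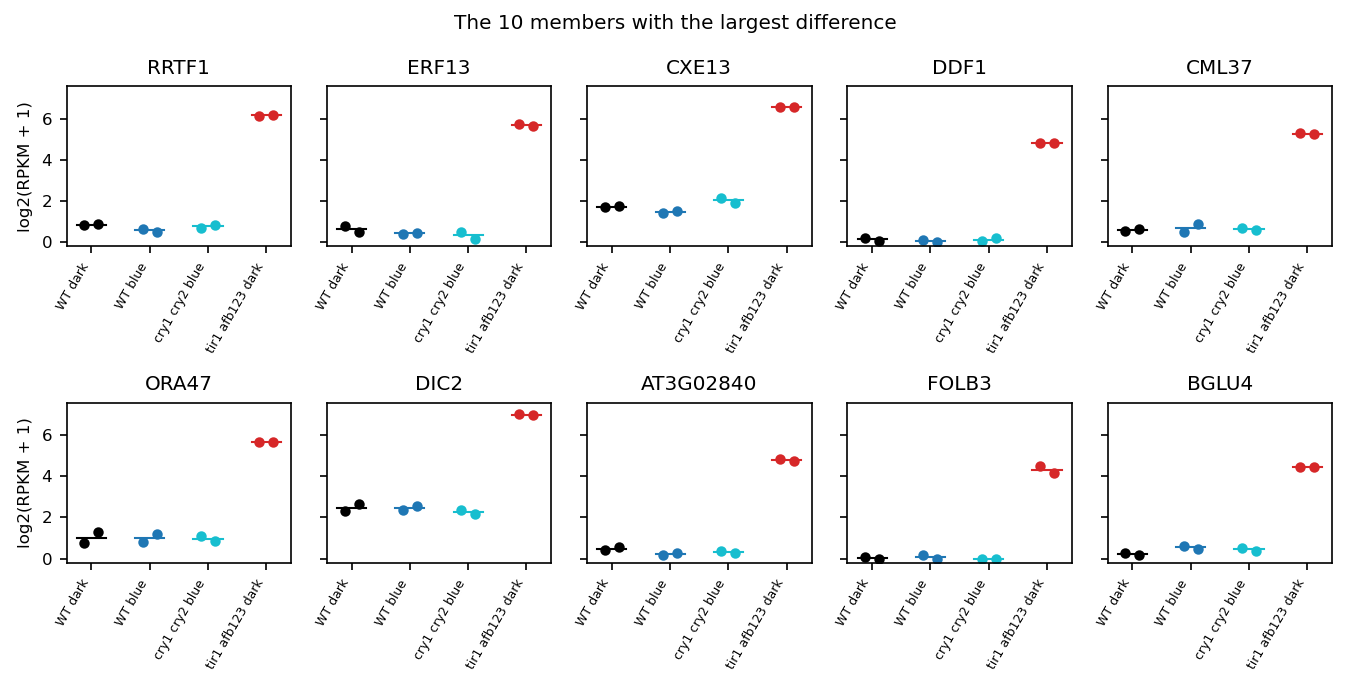
The 10 members with the largest difference: log2(RPKM + 1) in each library (points) with the group mean (line) in the 4 groups. In each panel the 2 mutant points lie together, above the 6 other points.

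**Figure D3:**
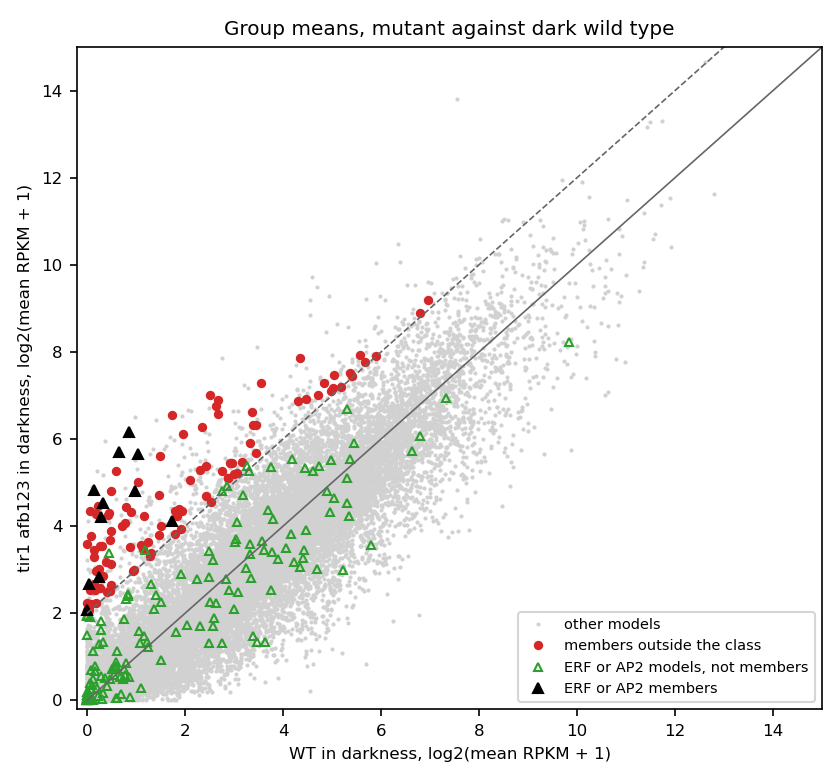
Group means of all models in the dark wild type (x axis) and the mutant (y axis), both as log2(mean RPKM + 1), with members outside the ERF or AP2 class as filled circles and models of that class as triangles; the solid line marks equal levels and the dashed line a log2 ratio of 2. The 11 ERF or AP2 members sit at the left, with wild-type means of 0 to 2.32 RPKM, and models of the class with higher wild-type levels lie on both sides of the solid line.

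A further 14 members were regulators of other families. WRKY18 (AT4G31800), a pathogen-induced WRKY factor, stood at 5.37 and 5.32 RPKM in the dark wild type, 4.02 and 3.91 in blue light, 6.61 and 5.66 in cry1 cry2, and 121 and 113 in the mutant. All 6 other libraries stayed at or under 6.61 RPKM. WRKY46 reached 33.2 and 29.6 RPKM from 0.933 and 1.17, and WRKY38, a negative regulator of basal defence, 5.29 and 5.35 from 0.204 and 0.584. The fourth WRKY member was AT3G32090, at 3.12 and 4.27 RPKM.

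STZ (AT1G27730, also called ZAT10), a C2H2 zinc finger repressor that responds to salt and cold, was the member whose dark wild-type libraries differed most on the log2(RPKM + 1) scale, at 3.11 and 7.26 RPKM, against 108 and 107 in the mutant. SZF1, a CCCH zinc finger protein of salt stress, went from 10.7 and 10.6 to 156 and 154 RPKM and had the highest mutant level of these regulators. MYB15, known from cold and lignin responses, had 0.463 and 0.221 RPKM in the dark wild type and 18 and 17.9 in the mutant. MYB77, which works together with auxin response factors, went from 4.74 and 4.78 to 23.1 and 22 RPKM. Lowest in the mutant was BHLH92, a bHLH factor, at 3.01 and 3.34 RPKM, with 0 reads in both dark wild-type libraries.

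Jasmonate is a lipid-derived wound hormone whose signalling is held back by JAZ proteins. JAZ8 (AT1G30135) had 0 reads in both dark wild-type libraries, 0.0772 and 0.0854 RPKM in blue light, 0 in both cry1 cry2 libraries, and 10.5 and 11.6 RPKM in the mutant. Against a floor of 3 reads over both dark wild-type libraries this is at least 81.9-fold higher. JAZ5 (AT1G17380) went from 0.64 and 0.785 to 15.1 and 16.5 RPKM. AOC3 (AT3G25780), an allene oxide cyclase of jasmonate synthesis, went from 9.36 and 9.57 to 81.1 and 77.8 RPKM, with 8.32 to 10.5 in the blue light libraries. OPCL1, which activates a jasmonate precursor for shortening in the peroxisome, went from 6.64 and 6.81 to 44.1 and 41.6 RPKM.

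The list of 27 jasmonate and wounding genes had 21 tested, of which 18 rose and 3 fell in the mutant by limma, with a median log2 difference of 2.37 against -0.243 over all tested models. On the same scale of RPKM + 1, 13 of the list were at least 4-fold higher, yet only JAZ5, JAZ8 and AOC3 met the rule, since others such as LOX3 (4.03, SE 0.11) and JAZ1 (2.78, SE 0.07) left the bounds in a blue light group. The 3 that fell were VSP1 (-1.26, SE 0.09), VSP2 (-1.11, SE 0.12) and PR4 (-1.66, SE 0.08), of which VSP1 and VSP2 encode vegetative storage proteins known as late jasmonate targets. ACS6 (AT4G11280), a rate-limiting enzyme of ethylene synthesis, had 9.01 and 9.11 RPKM in the dark wild type, 6.01 and 7.11 in blue light, 8.82 and 8.57 in cry1 cry2, and 63.3 and 54.4 in the mutant. Of 18 tested ethylene genes only 5 rose and 12 fell, at a median of -0.69, and the apical hook gene HLS1 was among those that fell (-2.18, SE 0.10).

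CML37 (AT5G42380), a calmodulin-like calcium sensor, stood at 0.458 and 0.562 RPKM in the dark wild type, 0.385 and 0.852 in blue light, 0.602 and 0.524 in cry1 cry2, and 38.2 and 36.9 in the mutant. Among defence genes the highest mutant level was that of NHL3 (AT5G06320), a pathogen-induced membrane protein, at 238 and 237 RPKM from 56.7 and 60.1. AT2G30020, a protein phosphatase 2C, went from 8.68 and 9.98 to 101 and 94.2 RPKM. PROPEP4, the precursor of an elicitor peptide, went from 8.04 and 5.03 to 42.8 and 42.3, the receptor-like kinase CRK10 from 7.4 and 7.35 to 37.9 and 34.2, and CYP81F2 of indole glucosinolate synthesis from 0.992 and 0.889 to 6.71 and 7.21.

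CBP60G (AT5G26920), a calmodulin-binding factor that activates salicylic acid synthesis, had 1.4 and 1.52 RPKM in the dark wild type, 1.3 to 1.81 in the blue light libraries, and 9.82 and 8.96 in the mutant. The kinase gene MAPKKK21 had 0 reads in both dark wild-type libraries and 3.5 and 2.96 RPKM in the mutant. AT4G37710, a VQ motif protein, was the only member with 0 reads in all 6 other libraries and had 100 reads over the mutant libraries, at least 30.3-fold more than a floor of 3 reads over the dark wild type. The list of 28 salicylic acid and immunity genes had 15 tested, of which 11 rose and 1 fell, at a median of 1.23. The gene that fell was EDS1 (-0.6, SE 0.09), and PR1, PR2 and PR5 did not pass the filter on low values. The members in this list were CBP60G and WRKY38. WRKY33 (2.28, SE 0.08) and the salicylic acid synthesis gene ICS1 (1.17, SE 0.10) rose as well without meeting the rule.

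Starch and plastid metabolism formed a further set. GBSS1 (AT1G32900), the starch synthase that makes amylose, stood at 4.25 and 3.95 RPKM in the dark wild type, 3.57 and 3.98 in blue light, 5.51 and 5.7 in cry1 cry2, and 79 and 74.8 in the mutant. APL3 (AT4G39210), a large subunit of ADP-glucose pyrophosphorylase, went from 5.1 and 5.7 to 99.2 and 90.8 RPKM, and GPT2 (AT1G61800), which brings glucose 6-phosphate into plastids, from 4.32 and 3.53 to 38.9 and 37.6. These 3 genes act on neighbouring steps of starch formation.

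HEMA1 (AT1G58290), which catalyses the first committed step of chlorophyll and heme synthesis, was already at 48.4 and 51.1 RPKM in the dark wild type and 53.5 to 63.4 in the blue light libraries, and stood at 227 and 207 in the mutant. It was the only member in the photosynthesis list, in which all 25 genes were tested and all 25 rose, at a median of 2.00. Of that list 12 genes were at least 4-fold higher in mean RPKM + 1. RFNR1, a ferredoxin NADP reductase of the root type, went from 21.4 and 21.1 to 123 and 118 RPKM.

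DIC2 (AT4G24570) and UCP5 (AT2G22500, also called DIC1) encode dicarboxylate carriers of the inner mitochondrial membrane. DIC2 had 3.91 and 5.39 RPKM in the dark wild type, 4.16 and 4.93 in blue light, 4.18 and 3.52 in cry1 cry2, and 130 and 124 in the mutant. UCP5 had 24.1 and 26.1 RPKM in the dark wild type, 19.8 to 29.1 in the blue light libraries, and 131 and 124 in the mutant, so that both carriers reached nearly the same level from different starting points. MFP2 (AT3G06860), a peroxisomal enzyme of fatty acid beta-oxidation, had the highest mutant level of the nuclear members, at 249 and 236 RPKM from 45.9 and 47.5.

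A further 50 members had no role in these groups, with log2 ratios of 2.02 to 4.84 and mutant means of 3.14 to 232 RPKM. CXE13, of the carboxylesterase family, went from 2.23 and 2.37 to 93.3 and 93.7 RPKM. AT1G07135, a glycine-rich protein, went from 19.9 and 18.7 to 227 and 237, and KCS8, an enzyme of very long chain fatty acid synthesis, from 39.5 and 40.9 to 185 and 182. AT3G02840, an ARM repeat protein, reached 28.2 and 26.2 RPKM. FOLB3 of folate synthesis had 1 read over both dark wild-type libraries and 621 over both mutant libraries, and BGLU4, a beta-glucosidase, had 10 and 1414. AT1G48660, a GH3 family member by its RefSeq name, was singled out after its values were seen, since no gene of the auxin lists met the rule; it went from 0.451 and 0.258 RPKM to 20.4 and 16.9.

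Genes of seed reserves were members at low levels. SESA3 (AT4G27160), a 2S albumin, had 3 reads over the dark wild-type libraries and 10.3 and 9.52 RPKM in the mutant, SESA5 had 6.15 and 6.27 RPKM there, and the globulin CRU2 (AT1G03880) 3.23 and 3.73. All 3 had their highest value outside the mutant in replicate 2 of cry1 cry2, at 0.78, 0.777 and 0.621 RPKM. In the seed storage list 15 of the 16 genes tested rose (median 2.33) and 0 fell; 9 of the list were at least 4-fold higher in mean RPKM + 1, a scale that understates low genes, and CRA1 (4.84, SE 0.22), another globulin, rose without meeting the rule. Their summed level was 981 and 1030 RPKM in the dark wild type, 158 to 659 in the blue light libraries, and 16110 and 16847 in the mutant, most of it from ICL of the glyoxylate cycle.

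The anthocyanin members were LDOX (AT4G22880), the anthocyanidin synthase, and GSTF12 (AT5G17220), which carries anthocyanin to the vacuole. LDOX had 1 read over the dark wild-type libraries and 3.23 and 3.24 RPKM in the mutant. GSTF12 had 1 read and 4.07 and 3.08 RPKM in the same groups. Under blue light LDOX stood at 0.277 and 0.23 RPKM in the wild type and 0.62 and 0.183 in cry1 cry2. GSTF12 stood at 0.336 and 0.31, and 0.334 and 0.237. Both genes were thus above their dark wild-type level there, and only the added 1 RPKM kept them within the bounds. In the flavonoid and anthocyanin list 13 of 14 tested genes rose and TTG1 fell (-0.38, SE 0.07), which was not called after median-ratio scaling. The list median was 3.11, and 10 genes were at least 4-fold higher in mean RPKM + 1, among them CHS (4.31, SE 0.07), the first enzyme of the pathway.

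Plastid-encoded models differed from the nuclear members in how far the libraries agreed. ATCG00130, the member with the highest level, stood at 149 and 98 RPKM in the dark wild type, 101 and 90.2 in blue light, 110 and 104 in cry1 cry2, and 377 and 790 in the mutant. ATCG00700 had 23.2 and 14.2, 19.1 and 19.7, 16.7 and 13.6, and 72.8 and 161 RPKM in the same order. For all 8 plastid members replicate 2 of the mutant was 1.61 to 2.21 times replicate 1, while among nuclear members only AT2G12905 and AT3G53600 had a ratio over 1.37. The share of all reads on plastid models was 1.384% and 1.973% in the mutant libraries, 0.896% and 0.834% in the dark wild type, 1.307% and 1.422% in blue light wild type and 0.797% and 0.791% in cry1 cry2. Blue light wild type was thus close to replicate 1 of the mutant, and the part of this share in these results was not tested. Without replicate 2 of the mutant none of the 8 met the rule, and without replicate 2 of the dark wild type 1 did, whereas 98 and 92 of the 105 nuclear members met it.

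Of the 88 plastid models, all tested, 79 rose and 4 fell in the mutant by limma, at a median of 1.33, and 16 were at least 4-fold higher in mean RPKM + 1. The nuclear model AT2G12905 had 36.7 and 63.6 RPKM in the mutant against 11.1 and 8.58 in the dark wild type. Its whole coding sequence, 219 bases, aligns to the plastid genome at 95% identity. How reads were assigned between such copies is not given in the sources used here, so its level is uncertain. The RNA was purified with oligo(dT), which binds poly(A) tails, and plastid transcripts mostly lack the long tails of nuclear ones; the part of that step in the plastid levels was not tested.

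**Figure D4:**
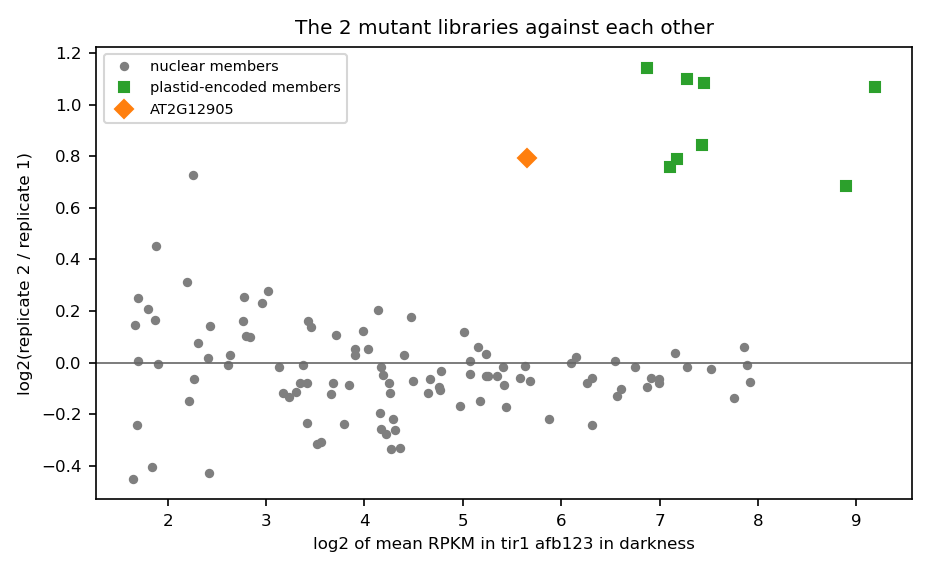
The log2 ratio of replicate 2 to replicate 1 of the mutant for each member (y axis) against its log2 mean RPKM in the mutant (x axis), with nuclear members as grey circles, plastid-encoded members as squares and AT2G12905 as a diamond. The 8 plastid members lie at ratios of 1.61 to 2.21 and most nuclear members lie near a ratio of 1.

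The rule bounds both blue light groups, so their counts of called members are a description. In the wild type 13 members rose and 21 fell in blue light against darkness, with background shares of 34% and 40.4%; without replicate 1 of blue light wild type the counts were 7 and 16. In cry1 cry2 under blue light compared with the dark wild type 12 rose and 7 fell, against 25.1% and 16.5% of tested models; the counts were 5 and 7 without replicate 1 of the dark wild type, 6 and 8 without its replicate 2, 7 and 6 without replicate 2 of cry1 cry2, and after median-ratio scaling 6 and 10. Under blue light 20 members rose and 13 fell in cry1 cry2 compared with the wild type, against 41.6% and 26.3% of tested models; after median-ratio scaling 14 rose and 16 fell. These differences ran from -0.826 to 0.88 on the log2 scale. The largest rise was that of APL3, from 3.82 and 3.71 to 6.94 and 8.68 RPKM (log2 difference 0.88). AT5G45630 (0.68) and FBS1 (0.62), a stress-induced F-box gene, followed. The largest fall was that of KCS8, from 52.1 and 58.4 to 30.7 and 30.6 RPKM (log2 difference -0.83), followed by ERF2 (-0.65) and AT5G55340 (-0.56).

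Several lists without members stood apart in the same mutant libraries. In the dark and sugar starvation list 9 of 10 tested genes fell and 1 rose, at a median of -1.73. In the cytokinin list 12 of 18 fell and 3 rose. In the abscisic acid and dehydration list 17 of 26 rose and 5 fell, and in the heat shock list 9 of 12 rose and 2 fell. All 28 tested genes of the chosen list of GH3 and SAUR genes fell, at a median of -2.41. AT1G48660, a member of the GH3 family by its RefSeq name, is not in that list and rose. Of the Aux/IAA list 25 of 26 tested genes fell while 1 rose, at a median of -1.16. Marker lists of tissues moved too. All 17 root hair genes fell, and their summed level was 37.5 and 35.4 RPKM in the mutant against 139 and 159 in the dark wild type and 158 to 208 in the blue light libraries. In the root tissue list 15 of 19 tested genes fell and 1 rose, with a summed level of 217 and 214 RPKM against 715 and 724; blue light wild type was also low, at 284 and 271, and cry1 cry2 stood at 739 and 665. In the vascular and secondary wall list 16 of 17 fell, with 131 and 129 RPKM against 423 and 409 in the dark wild type, 416 and 412 in blue light wild type and 646 and 664 in cry1 cry2. None of the root hair or vascular genes was at 0 in the mutant. In the stomata list 11 of 14 rose and 1 fell, or 13 and 0 after median-ratio scaling, at 153 and 155 RPKM against 125 and 123. These lists also differed between groups in which the summed nuclear members stayed at 490 to 519 RPKM. The rule itself held the members near the dark wild-type level in those groups, so nothing about organ makeup follows from this. The part of organ makeup in the members' levels was not tested.

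**Figure D5:**
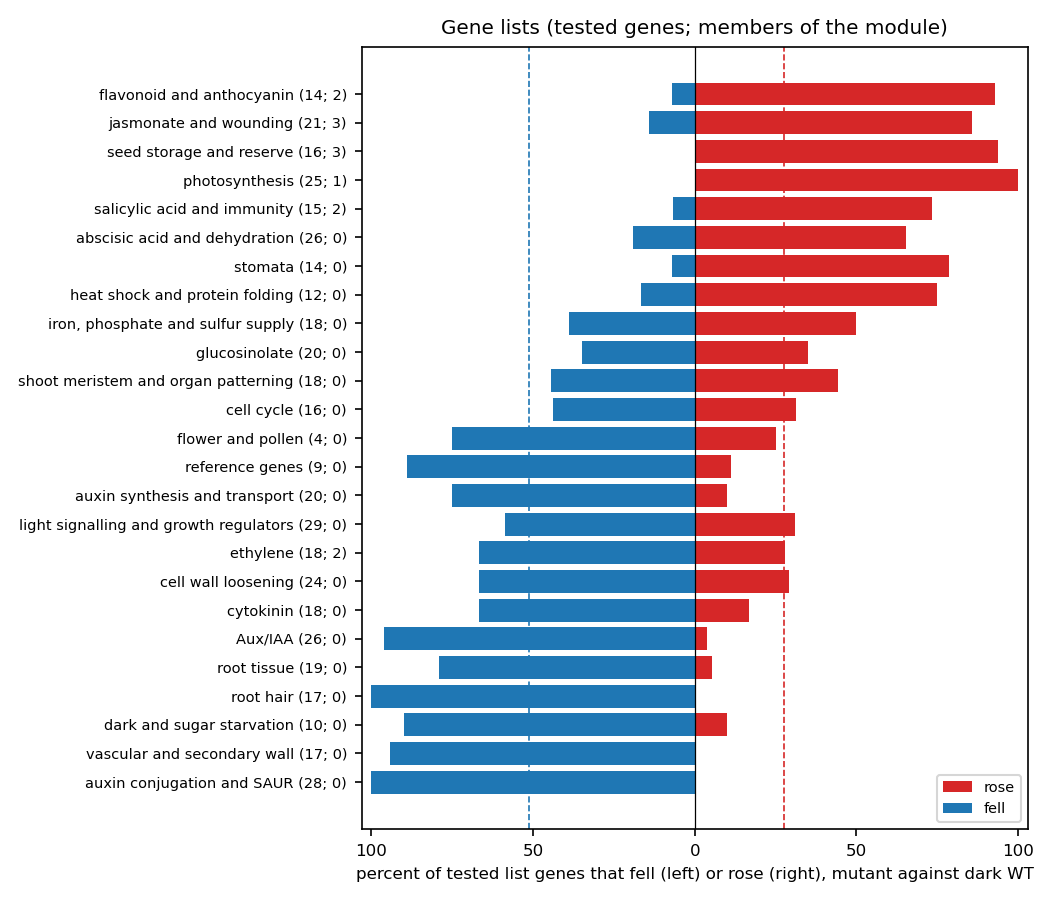
Share of the tested genes of each of 25 lists that rose (right) or fell (left) in the mutant against the dark wild type by limma; brackets give the number tested and the number of members. Dashed lines mark the shares over all tested models, 27.5% and 51.4%. The upper 5 lists, from flavonoid to salicylic acid, hold 11 members, and the ethylene list holds 2. At the bottom, the lists of GH3 and SAUR, Aux/IAA, root, vascular and dark and sugar starvation genes hold 0.

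Exon counts were compared without a test. Of the 105 nuclear members 44.8% had a single exon in the RefSeq annotation, against 16.5% of all tested models, 29.2% of the other models at least 4-fold higher in the mutant on that scale of RPKM + 1, and 32.3% of the 96 models lowered alone in the mutant by the mirrored rule. All 11 ERF or AP2 members had a single exon, and so had 38.3% of the other members, against 16.3% of tested models outside the class. Single-exon models numbered 3279 of 19818 tested models with annotated exons, and 3213 of 19710 outside the class. A single exon was thus common in the whole ERF or AP2 class and not particular to its members. The median length of the models was 1103 bases against 1472 over all tested models. It was nearly the same in the models lowered alone, at 1126 bases, and in the other raised models, at 1127. Exon number was looked up after the members were seen.

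The members were spread over the genome, with 28, 19, 15, 17 and 26 on chromosomes 1 to 5. Only DDF1 lay within 50 genes of a mutated receptor gene, AFB3, and none lay within 100 genes of TIR1, AFB1 or AFB2. Only 2 members, AT2G32200 and AT2G32210, were direct neighbours, and 3.81% had another member within 3 places, against 12.5% of the 96 models lowered alone and 19.5% of the other raised models, a larger set of 435. AT5G43620 and BHLH92 formed the second such pair.

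In the 300-base promoters, from 250 before to 50 after the start and on either strand, the auxin response motif TGTCTC was found in 14.3% of members and 14.5% of all promoters, the GCC-box GCCGCC in 1.9% and 2.68%, and the G-box CACGTG in 12.4% and 7.69%. The other raised models held the G-box in 14.5%. The evening element AAATATCT was found in 12.4% and 5.67%, and the TATA box TATAAA in 62.9% and 51.9%, with 64.6% for the TATA box in the models lowered alone. TGACG was found in 20% and 23.4%, GATAAG in 12.4% and 14.8%, TGTCGG in 6.67% and 5.16%, and GAANNTTC in 16.2% and 11.8%. ACGTG was found in 31.4% and 26.8%, with 41.6% in the other raised models. The W-box core was found in 61.9% and 50.1%, with 50.1% in the other raised models and 44.8% in those lowered alone. None of these shares was tested.

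Some members share sequence with other genes, so that the authors' counting could have split reads between them. The coding sequences of the members AT1G66500 and AT5G43620 were 93.1% identical. SESA3 was 90.4% identical to SESA2, which was at 8.17 and 8.55 RPKM in the mutant, and AT2G32210, FAMT, PP2-B13 and AT4G04730 also had a copy of at least 90% identity. Levels of these 7 genes are uncertain to that extent.

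The members met a threshold on a continuous scale, and with 5 in place of 1 added to the RPKM values only 49 of them met it and the bounds. Just inside lay NHL3 with a log2 ratio of 2.007, ATCG00350 with 2.015 and AT2G05580 with 2.02, and just outside UGT84A1 with 1.985, AT5G28610 with 1.981 and ATCG00680 with 1.978. In all, 556 models, 2.03% of those measured, had a log2 ratio of at least 2, and the members were 20.3% of them. Of the other 443, 319 exceeded the upper bound in blue light wild type, 87 were below the lower one, and 37 left the bounds in cry1 cry2 alone. With replicate 1 libraries alone the rule found 96 models, of which 83 had a log2 ratio of at least 2 in the replicate 2 libraries, with a median of 2.71 and none under 1.5. With replicate 2 libraries alone it found 118 models, of which 82 reached 2 in the replicate 1 libraries, with a lowest value of 0.34, and 61 models met the whole rule in both.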

How the data were processed

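Polyadenylated RNA of 8 libraries was measured. Values were deposited as RPKM for each model, per the file headers. Bowtie2 2.2.2 and the TAIR10 build are named in the submitters' processing notes; the annotation release and the way reads were assigned to models are not given in the sources used here. RPKM divides by model length and by total reads, so a rise of abundant transcripts lowers all others. Whole reads were recovered from the steps of the RPKM values for all 24717 models above 0 (tolerance 0.01 reads). They serve for depth, shares of reads, read counts and their ratios, floors of 3 reads and counting intervals only. The recovered length equalled an annotated transcript length to within 1 base in 4963 of 23951 models compared. Models that reached 1 RPKM in 2 or more libraries entered the test on log2(RPKM + 1) with limma 3.58.1 in R 4.3.3 (lmFit, eBayes with trend, 4 groups in 1 fit with 4 residual and 6.96 prior degrees of freedom), and adjusted by Benjamini-Hochberg. The script was tested on simulated data.

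Symbols, product names, exons, promoters and gene order came from RefSeq's TAIR10.1 annotation, which held 105 members; the plastid models keep their locus names. Near copies were found with blastn 2.17.0. The members, the 25 gene lists, the roles and the tests were chosen with earlier results of these data known; 10 list symbols that RefSeq gives to more than 1 gene were assigned by hand. Genes were named by rule: the mutated genes, the 10 largest differences, the 8 highest mutant levels, members in lists or near another member or a mutated gene, values at the threshold, leading transcription factors, leading cry1 cry2 differences and the widest library gaps. Other members named were chosen after their values were seen.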

Additional observations from a re-analysis of the deposited data

How the results depend on the processing

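All 113 members stayed called as risen in the mutant under the alternatives of the fit, except that a filter at 3 RPKM left 110. The rule chose the members on this contrast, so their calls in it are a description and no support. Of the named genes' recalculated values 1025 kept their direction and call, and TIR1 lost its call with median-ratio scaling, at -0.06 (limma adjusted p = 0.273). Median-ratio scaling moved the median of all tested models by 0.26 and upper-quartile scaling by 0.15 on the log2 scale; the risen and fallen models then numbered 7739 and 7473, or 6703 and 8684, against 5521 and 10295. The rule found 226 models at a threshold of 1.5, 40 at 3, 50 with bounds of 0.25, 211 with bounds of 1 and 175 after median-ratio scaling, of which 111 were members. Membership depended on the pseudocount: with 5 the rule found 79 models, of which 49 were members, and with 0.25 it found 124, of which 74 were. Without each library in turn it found 99 to 120 models, and 14886 to 15700 models were called in the mutant, always with 113 members. Under a pseudocount of 5, the members called fell from 34 to 20 for the wild-type light contrast and from 19 to 11 for cry1 cry2 compared with dark wild type. Leaving out each library gave 23 to 34 and 12 to 20 for these, with 12 reached without replicate 1 of dark wild type, and 28 to 35 for the contrast of both blue light groups. Within 200 genes of a mutated gene lay 5 members rather than 1, and 2 rather than 4 members had a direct neighbour. The cause of these changes was not tested.

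Same-numbered deviations were only weakly correlated between groups, from -0.115 to 0.137. Whether the replicate numbers pair the samples is not labelled, and these correlations cannot settle it. With a replicate block 15756 models were called in the mutant instead of 15816, and no count of called members moved by over 1.5 times. With the mutant's numbers crossed, an alternative added after the data were seen, 15884 models were called. With 2 libraries a group, no library can be tested for standing apart, and genes under 3 reads give ratios with wide counting intervals.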
